A study of Branchiostoma belcheri with 2 samples.

Results

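The microRNAs (miRNAs) miR-216 and miR-217 were followed in gill RNA of the amphioxus *Branchiostoma belcheri*, an invertebrate chordate, after injection of LPS, the lipopolysaccharide of bacterial outer membranes. The probes were chosen by name alone: every array probe called miR-216 or miR-217 after its species prefix, with any letter or arm suffix. These were 14 of 1686 miRNA probes, 9 for miR-216 and 5 for miR-217. There was 1 control array and 1 LPS array, both of gill. Per the labels, the LPS animals were given 15 µl of LPS (1 mg/ml, in PBS), injected into the body cavity, and collected at 12 h, and the controls were given PBS alone, in an equal volume. The control label gives no time, and none of the sources used here states the number, age or sex of the animals behind an array, nor whether they were pooled. With 1 array per group no difference below has a replicate check, no test was possible, and treatment and array cannot be told apart.

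A miRNA is cut from an RNA hairpin, and either arm of the hairpin (5p or 3p) can be kept and loaded onto an Argonaute protein. The loaded strand pairs with messenger RNAs mainly through its seed, bases 2 to 8, and lowers their translation or stability. In vertebrate genomes the genes for miR-216 and miR-217 lie next to each other in one cluster, and both families are known for their enrichment in the exocrine pancreas. In human endothelial cells miR-217 is known to target SIRT1, a deacetylase.

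The 5p probes are shown first, since they hold both members counted as lower below and can be compared base by base. Target sequences are those of the array files, 5′ to 3′, with the seed in capitals. The prefixes stand for *Branchiostoma floridae*, the Florida amphioxus (bfl), zebrafish (dre), a clawed frog (xtr), sea lamprey (pma), the sea squirt *Ciona*, a tunicate (cin), and *B. belcheri* itself (bbe). The 7 miR-216 targets of the 5p arm were:
bfl-miR-216-5p: uAAUCUCAgcuggcaacugugag
dre-miR-216a: uAAUCUCAgcuggcaacuguga
xtr-miR-216: uAAUCUCAgcuggcaacugug
pma-miR-216a-5p: cAAUCUCAgcuggcaacugugag
cin-miR-216: uAAUCUCAgcuggcaaucuguga
dre-miR-216b: uAAUCUCUgcaggcaacuguga
pma-miR-216b: aAAUCUCUgcaggcaacugugga

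The 4 miR-217 targets of the 5p arm, shown to place the single internal change of the tunicate form, were:
bfl-miR-217: uACUGCAUcaggaacugauugga
dre-miR-217: uACUGCAUcaggaacugauugg
xtr-miR-217: uACUGCAUcaggaacugauuggau
cin-miR-217: uACUGCAUuaggaacugauugg

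The 3 targets of the 3p arm, the opposite strand of the hairpin, were:
bfl-miR-216-3p: cACGGUGCaagcugggaucgcu
pma-miR-216a-3p: aCGGGAGUcacugggauuaggc
bbe-miR-217-3p: aAUCUGUUccucaugcauggcu

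The seed AAUCUCA was shared by 5 miR-216 probes of amphioxus, tunicate, frog, zebrafish and lamprey. The 2 miR-216b probes had the seed AAUCUCU, and all 4 miR-217 probes of the 5p arm had ACUGCAU. No probe outside the 2 families had any of the 6 seeds found among the members, and none lay within 3 edits of a member or of its reverse complement. The closest outside probe was dre-miR-23b, at 4 edits from dre-miR-216a and xtr-miR-216. Edits are substitutions, insertions or deletions, with extra bases at the ends of the longer sequence not counted.

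Measured against the *B. floridae* probe of the family, with positions counted from 1 at its 5′ end, dre-miR-216a, xtr-miR-216, dre-miR-217 and xtr-miR-217 differed in end length only (0 edits). pma-miR-216a-5p differed by U1C, a change of the first base. cin-miR-217 carried C9U, the base after the seed. cin-miR-216 carried 1 inserted U after position 16. dre-miR-216b carried A8U, the last base of the seed, and U11A, and pma-miR-216b carried both of these and was 4 edits away in all. Of the 11 probes for the 5p arm, 7 thus had no internal change and 4 had one. The *B. floridae* sequences stood for amphioxus here, since bbe-miR-217-3p was the 1 *B. belcheri* probe found by the name rule.

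Each probe had 2 repeat spots per array, and it was taken as detected where their mean lay above the 95th percentile of that array's empty spots, an intensity of 121.9 for control and 143.5 for LPS. On the control array 13 of the 14 members were detected, against 38.4% of all miRNA probes. On the LPS array 11 of 14 were detected, against 20.1% of all. All 11 were detected on both arrays, dre-miR-216b and pma-miR-216b passed on the control array alone, and pma-miR-216a-3p on neither. All 4 amphioxus probes and both tunicate probes were detected on both arrays, as were 5 of 8 vertebrate probes. Of all amphioxus probes 78.1% were detected for control and 53.8% for LPS. The shares were 24.7% and 10.6% for all tunicate probes, and 34.5% and 15.9% for all vertebrate probes. The intensities of different probes depend on their own binding and labelling, so no probe's level is set against another's.

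**Figure D1:**
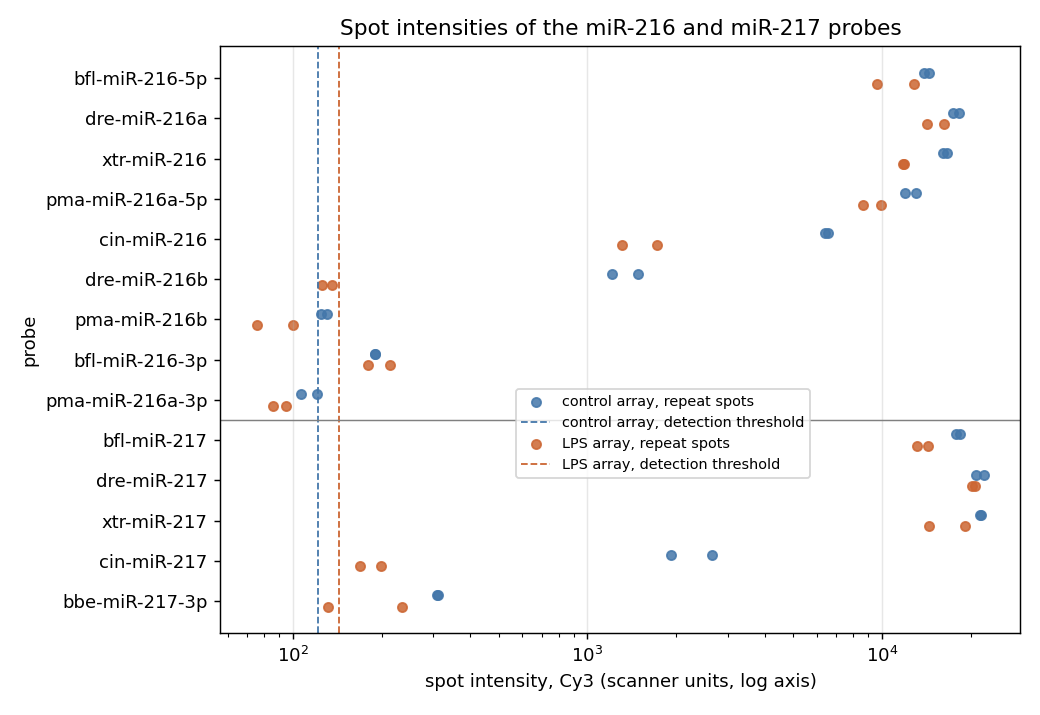
Spot intensity (scanner units, log axis) of each of the 14 probes, with 2 repeat spots per array as points, blue for control and orange for LPS, and the detection threshold of each array as a dashed line. For dre-miR-216b the LPS spots lay at 125.2 and 135.8, under the LPS threshold, and its control spots at 1485 and 1214, above the control threshold.

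For the 5p arm of miR-216, the 4 probes without an internal change gave strong signal on both arrays. The *B. floridae* probe bfl-miR-216-5p read 13876 and 14417 on the control array and 12866 and 9623 on the LPS array. dre-miR-216a read 18328 and 17418 on the control array and 16286 and 14269 on the LPS array. xtr-miR-216 read 16670 and 16181 against 11922 and 11814. For each of them every LPS spot was below both control spots on the scanner's own scale. pma-miR-216a-5p, the lamprey form with a different first base, read 11974 and 13005 on the control array and 9939 and 8648 on the LPS array, also without overlap. The LPS means were 79.5%, 85.5%, 72.3% and 74.4% of the control means for these 4 probes, in the order given.

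The 5p arm of miR-217 gave the same picture for 3 of its 4 probes. bfl-miR-217 read 17879 and 18401 on the control array and 14301 and 13135 on the LPS array. dre-miR-217 read 22232 and 20903 against 20147 and 20706, the closest of the 3, with the LPS mean at 94.7% of the control mean. xtr-miR-217 read 21695 and 21530 against 19170 and 14463. No LPS spot of the 3 reached a control spot of the same probe, and the LPS means of bfl-miR-217 and xtr-miR-217 were 75.6% and 77.8% of the control means.

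After quantile normalization, which gives both arrays the same distribution of signal, these 7 probes stood slightly above 0, between 0.06 (xtr-miR-216) and 0.55 (dre-miR-217) as log2 differences, LPS minus control. bfl-miR-216-5p stood at 0.23 ± 0.22 and bfl-miR-217 at 0.18 ± 0.06, where ± gives an SE from the repeat spots alone (2 per array), which is technical. The rule for counting a probe as higher or lower asked for detection on 1 array or more, a difference in normalized signal of 2-fold or more, and no overlap between LPS and control spots. None of the 7 was counted in either direction. All 7 stood below 0 with no normalization between arrays (-0.08 to -0.47) and above 0 with scaling to the median of probes detected on both arrays (0.70 to 1.09). Of the 684 detected probes the median log2 difference was -0.10 after quantile normalization, -0.18 with none and 0.99 with median scaling. The direction of these 7 probes therefore followed the scaling, and none is given.

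The members lower on the LPS array were cin-miR-217 and dre-miR-216b, 2 of the 13 detected members (15.4%), against 10.5% of all detected probes. None was higher, against 10.5% of all detected probes. The tunicate probe cin-miR-217 read 2653 and 1922 on the control array and 199.2 and 168.5 on the LPS array, where it lay just above the detection threshold. Its normalized signal was 6.68-fold lower (log2 difference -2.74 ± 0.28). The zebrafish probe dre-miR-216b read 1485 and 1214 on the control array and 135.8 and 125.2 on the LPS array, not above the threshold there. In the same main processing it was at least 6.28-fold lower, with the dimmest detected probe of the LPS array as the floor. This bound holds for that processing alone. Both were counted as lower in each of 8 other ways of processing, with log2 differences from -2.12 to -3.64 for cin-miR-217 and from -1.88 to -3.88 for dre-miR-216b.

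The other tunicate probe, cin-miR-216, read 6562 and 6383 on the control array and 1724 and 1307 on the LPS array. Every LPS spot lay below every control spot, and the LPS mean was 23.4% of the control mean. After quantile normalization it stood at -0.53 ± 0.24 and was not counted, and it was below 0 in each of the 8 other ways of processing (-0.50 to -2.11). It was counted as lower with loess (-1.47), no normalization (-2.11) and scaling on calibration spots (-1.22). Lower members thus numbered 3 of 13 with these scalings, against 11.4%, 18.7% and 9.21% of all detected probes, and 2 with median scaling, against 7.89%. Higher members numbered 2 with median scaling (dre-miR-217 and bfl-miR-216-3p, against 49.0% of all detected probes), 1 with calibration spots (bfl-miR-216-3p, against 25.9%), 0 with loess (against 5.26%) and 0 with no normalization (against 3.65%). pma-miR-216b read 131.0 and 124.9 for control and had a mean of 87.7 for LPS, too close to the threshold for a fold.

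**Figure D2:**
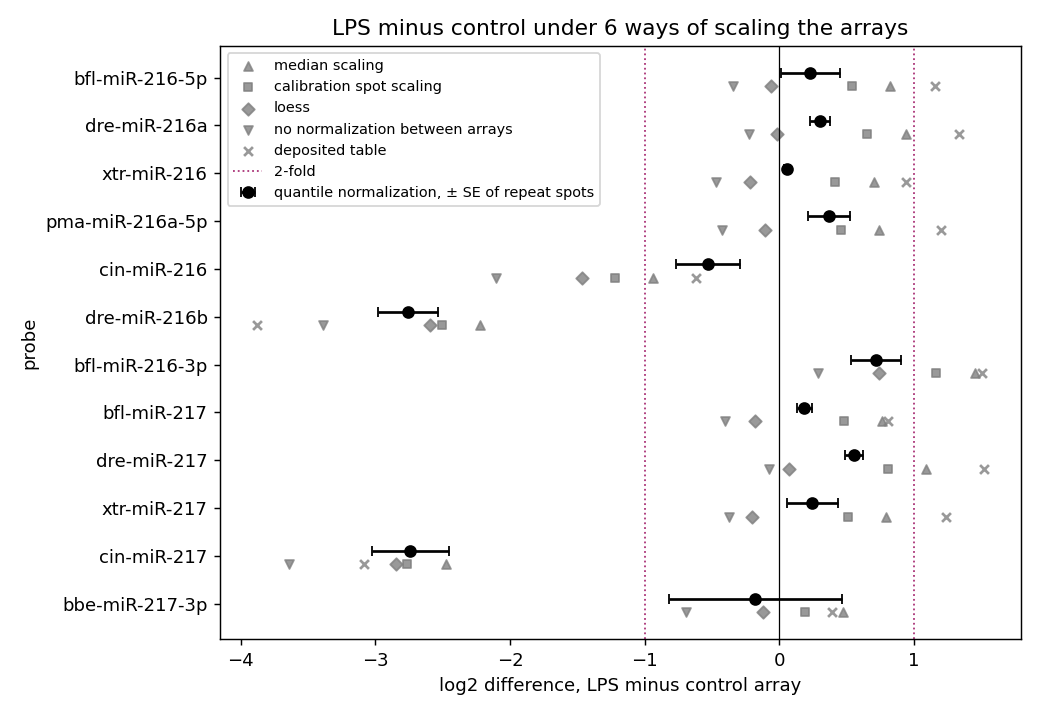
Log2 difference, LPS minus control, of the 12 members detected on at least 1 array other than pma-miR-216b. Black points with bars are quantile-normalized values ± SE over repeat spots, grey marks the other scalings and the deposited table, and dotted lines 2-fold. cin-miR-217 and dre-miR-216b lie beyond 2-fold in all 6, while the probes without an internal change cross 0 with the scaling.

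The 5p probes within a family were then set against their *B. floridae* probe, as the difference between their log2 differences, in which any constant factor between the arrays cancels. Median scaling, calibration spots and no normalization therefore give the same value here and are not separate checks among the 9 ways of processing. The 4 probes with end differences only stood at 0.07 ± 0.23 (dre-miR-216a), -0.17 ± 0.22 (xtr-miR-216), 0.37 ± 0.09 (dre-miR-217) and 0.06 ± 0.20 (xtr-miR-217). The 5′-end change of pma-miR-216a-5p went with 0.14 ± 0.27. Of these 5, dre-miR-217 alone differed from its amphioxus partner by more than 2 SE of the repeat spots, upwards, and its range over 9 ways of processing was 0.25 to 0.71.

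Of the 4 probes with internal changes, a grouping made after values were seen, 3 stood below their amphioxus probe in each of 9 ways of processing. The inserted U of cin-miR-216 went with -0.76 ± 0.33 (range -0.73 to -1.77 over 9 ways of processing), the C9U of cin-miR-217 with -2.92 ± 0.29 (-2.31 to -3.89), and the A8U and U11A of dre-miR-216b with -2.99 ± 0.32 (-2.11 to -5.04). The last is limited by the LPS background, where dre-miR-216b was not detected. The fourth, pma-miR-216b, near the threshold on the control array and under it on the LPS array, stood at -0.66 ± 0.31. It stood at 0.13 with median scaling, calibration spots and no normalization, which share a value by construction. Probes with such similar targets may all take up one RNA and are not separate measurements of a miRNA, and whether amphioxus RNA gives rise to a miR-216b or a tunicate form was not measured.

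**Figure D3:**
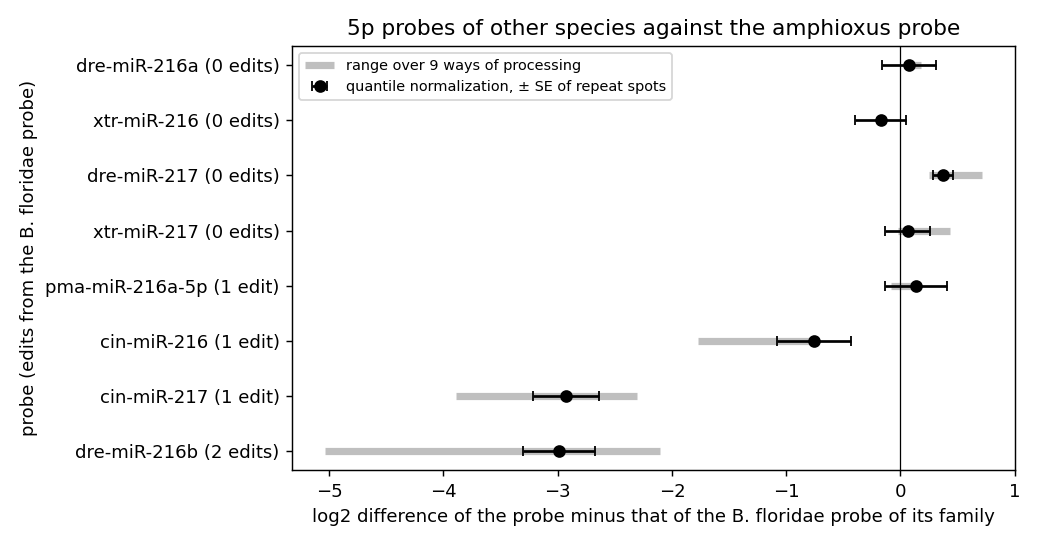
Log2 difference of 8 of the 9 5p probes of other species (pma-miR-216b, close to the threshold, is not drawn) minus that of the *B. floridae* probe of its family, with the number of edits between the targets. Points with bars are quantile-normalized values ± SE over repeat spots and grey bars the range over 9 ways of processing. The 5 upper probes lie between -0.17 and 0.37, and the 3 lower ones between -0.76 and -2.99.

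The same counts were taken over probes of other families. Among 108 probes of other species above 1000 on the control array, members left out, 34.3% were lower on the LPS array. The minimum of 1000 was set on the control array alone, 1 side of the difference, which favours probes lower on the LPS array. The edit classes that follow share this limit. By edits to the closest amphioxus target, the lower probes numbered 0 of 4 at 0 edits and 6 of 24 at 1 edit. They numbered 8 of 28 at 2 edits and 23 of 52 in the class of 3 or more. Probes counted as higher numbered 1, 5, 2 and 11 in these classes, in the same order, so each class held some. The median log2 differences of these classes were 0.31, 0.00, 0.08 and -0.54. On the array's control spots, signal of spots named as mismatched (MM or 3M), relative to partners named as matched (PM or 3P), fell between control and LPS in 19 of 27 pairs and did not in 8. The median of that ratio, background included, was 19.0% for control and 9.79% for LPS. In 22 of the pairs each matched spot type was counted with 2 mismatched ones, so the pairs are not independent. The matched Ctr02-3P read 122.3 for control and 113.8 for LPS, the latter under the LPS threshold. Many mismatched spots read near the empty spots on the LPS array. In the 5 pairs named PM and MM the ratio was lower for LPS in 4, but their median was 0.480% for control and 1.504% for LPS. The part of this in the values of cin-miR-216, cin-miR-217 and dre-miR-216b was not tested.

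The 3p arms gave low signal and no counted difference. bfl-miR-216-3p, whose target is 63.6% G and C, read 189.2 and 189.9 on the control array and 213.5 and 180.1 on the LPS array. The spots of the arrays overlapped on the scanner's own scale. After normalization it stood at 0.72 ± 0.19 (1.64-fold higher), under the 2-fold threshold, and above 0 in each of 8 other ways of processing (0.29 to 1.51). It passed the threshold with calibration spots (1.17), with median scaling (1.45) and in the authors' deposited table (1.51).

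bbe-miR-217-3p, the *B. belcheri* probe, read 307.7 and 309.9 on the control array but 235.5 and 131.4 on the LPS array, and the second LPS spot was under the threshold. Its log2 difference was -0.18 ± 0.64, smaller than its error, and it ranged from -0.69 to 0.47 over 9 ways of processing. With a repeat spot left out, its sign depended on the spot: -0.82 without repeat spot 1 and 0.47 without repeat spot 2. The lamprey probe pma-miR-216a-3p, 8 edits from bfl-miR-216-3p, read 120.3 and 106.8 on the control array and 85.7 and 94.7 on the LPS array, not above either threshold. Its target and that of bfl-miR-216-3p also had different seeds.

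By family, 8 of 9 miR-216 probes were detected with 1 lower and a median log2 difference of 0.14, and 5 of 5 miR-217 probes with 1 lower and a median of 0.18, beside 10.5% lower of all detected probes. No difference between the families was tested. By lineage, the 4 amphioxus members had a median of 0.21 (0 higher, 0 lower), beside 0.18 for all 204 detected amphioxus probes (34 higher, 8 lower). The 7 detected vertebrate members had a median of 0.25 with 1 lower and 0 higher, beside -0.25 for all 237 detected vertebrate probes (10 higher, 37 lower). The 2 tunicate members stood at -0.53 and -2.74, beside a median of -0.19 for all 170 detected tunicate probes (23 higher, 19 lower). These medians are from quantile normalization alone and carry no test. Both tunicate members, like the 2 miR-216b probes of vertebrates, carry an internal change. Over all detected members the median was 0.18, beside -0.10 for all detected probes. It was -0.18 beside -0.14 with loess and -0.40 beside -0.18 with no normalization. Median scaling gave 0.77 beside 0.99 and calibration spots 0.48 beside 0.70. In the deposited table it was 0.94 beside -0.48, and the other background settings also placed it above the median of all detected probes.

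Likeness to other amphioxus probes was taken as the smallest gap in log2 difference over the 2 arrays, among 135 amphioxus probes of other families detected on both. The closest to bfl-miR-216-5p was bbe-miR-92c-3p (gap 0.0035), and the closest to bfl-miR-217 was bbe-miR-2057-5p (gap 0.0001). For bfl-miR-216-3p it was bfl-miR-129a-5p (0.0026), and for bbe-miR-217-3p it was bbe-miR-2060c-3p (0.0005). All 4 gaps are below the SE of the members. Each is the smallest among 135 candidates, so small gaps were bound to arise and show no shared behaviour of the probes.

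Other miRNAs known in vertebrates for endoderm and pancreas were listed as miR-375, miR-192, miR-194, miR-215, miR-122, miR-7 and miR-148. Of their 32 probes 19 were detected, with 1 lower and 0 higher, beside 10.5% each way for all detected probes, and a median log2 difference of -0.06, beside -0.10. miR-375, known from pancreatic islets, had 10 of 10 probes detected in control and 7 in LPS, none counted and all between -0.33 and 0.63. Over all miRNA probes 38.4% were detected in control and 20.1% in LPS. The miR-375 signals were low, with a highest control mean of 352.3 (spu-miR-375). pma-miR-375a-5p (122.7), cin-miR-375-5p (124.2) and pma-miR-375b-5p (127.1) lay just above the control threshold of 121.9. The amphioxus probes of miR-375, bfl-miR-375 and bbe-miR-375-3p, stood at 0.63 ± 0.24 and 0.15 ± 0.23 after quantile normalization. On the scanner's own scale both means were lower for LPS, from 239.8 to 215.7 and from 286.8 to 193.8, so no direction is given. miR-7, known from islets and neurons, had 6 of 8 detected, and pma-miR-7b was the lower one, from an intensity of 273.8 to 93.8. No probe of miR-192 (3 probes), miR-194 (5) or miR-148 (3) was detected on either array.

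No miRNA is fixed as defining for gill, so the tissue label could not be checked by a marker. Of the vertebrate lists for other tissues, muscle (miR-1, miR-133, miR-206) had 21 of 35 probes detected with 0 higher and 3 lower, and neural (miR-124, miR-9, miR-137) 16 of 30 with 2 higher and 2 lower. Ciliated epithelium (miR-34, miR-449) had 19 of 27 detected with 5 higher and 1 lower. Blood (miR-142, miR-144, miR-223, miR-451) had 2 of 11 detected with 1 higher and 0 lower. The higher blood probe, pma-miR-144-3p, stood at 1.47 ± 1.37 and was not detected on the control array. The counts of these lists are from quantile normalization alone. With other scalings the share of all detected probes counted as higher ran from 3.65% to 49.0%. Of all 1686 miRNA probes 684 were detected on 1 array or more, and of these 10.5% were higher and 10.5% lower. Whether the gill samples held different shares of other tissues was not tested. Fewer cells of a type and less RNA per cell cannot be told apart in such bulk RNA.

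In the authors' deposited table of processed intensities the members without an internal change stood higher on the LPS array, bfl-miR-216-5p at 5995 and 13343 for control and LPS, and bfl-miR-217 at 9452 and 16545. There 6 members were at least 2-fold higher, against 23.5% of all detected probes, and 3 were at least 2-fold lower, against 43.3%. cin-miR-217 went from 933.2 to 110.0 and dre-miR-216b from 599.6 to 40.7 in that table. The third, pma-miR-216b, was at 0.01 on the LPS array, the lowest value the table holds.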

How the data were processed

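Per the labels' protocols, total RNA was tailed with poly(A) and ligated to a tag stained with Cy3. Per the file headers, each spot value is a median pixel intensity on a linear scale, deposited with no background column. The LPS array had 16 spots above 65535, the highest value of the control array, and whether that scan was rescaled is not stated. Each array held 3372 miRNA spots (2 per probe) and 304 empty spots, with a median intensity of 107.3 and an SD of 10.6 for control, and 99.8 and 30.5 for LPS. The pooled SD between repeat spots, over detected probes and in log2 units, was 0.211 for control and 0.613 for LPS. The number of arrays limits the precision.

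The authors' deposited table gives 1 processed intensity per probe and array (column medians 6.88 and 3.42), and its scale and centring steps are unknown. Its ranks followed the spots of the same array (Spearman 0.985 and 0.978 across detected probes, which are not replicates), so its direction is control then LPS.

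Background was corrected by normexp (offset 50, all spots) in limma 3.58.1 under R 4.3.3. Values were then converted to log2, quantile-normalized over the miRNA spots and averaged over repeat spots. Edits were counted with edlib 1.3.9.post1. The 2-fold step of the calls was tested on simulated data, without the detection and overlap rules. The simulated spot noise was smaller than that of either array, so the calls were not checked at the noise of these data. The alternatives run were offsets of 16 and 200 in normexp, uncorrected intensities, median scaling, loess (span 0.4), no normalization, scaling on 15 matched calibration spot types, the deposited table, other thresholds and leaving out a repeat spot. Every probe found by the name rule is described. The members and lists were chosen with earlier results of these data known, and the account of internal changes and the 1000 minimum were set after values were seen.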

Additional observations from a re-analysis of the deposited data

How the results depend on the processing

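The count of members lower on the LPS array was 2 or 3 in each alternative run, and cin-miR-217 and dre-miR-216b were among them in each of the other normalizations, background settings, the deposited table and both fits without a repeat spot. The count of higher members was 0 except with median scaling (2, against 49.0% of all detected probes), calibration spots (1, against 25.9%), the deposited table (6, against 23.5%) and a 1.5-fold threshold (1, against 16.1%). Over all 684 detected probes the counts moved from 72 higher and 72 lower to 335 and 54 with median scaling, 177 and 63 with calibration spots, 36 and 78 with loess, 25 and 128 with no normalization, and 161 and 296 in the deposited table, where probes at its lowest value add to the lower ones. Detected members numbered 13, or 12 with a threshold at the median plus 3 SD of empty spots and 11 at the highest empty spot, where bfl-miR-216-3p and pma-miR-216b dropped out. At both of these thresholds cin-miR-217 and bbe-miR-217-3p were not detected on the LPS array. cin-miR-217 and dre-miR-216b stayed below 0 in every alternative run on their values. Members counted in some alternatives alone could change sign, as dre-miR-217 did between median scaling (1.09) and no normalization (-0.08). The single log2 differences moved by more than the probe's pooled within-array SD of repeat spots (equal to the SE of its difference, with 2 spots per array) in 73 of 130 recomputed values. The cause of these shifts was not tested beyond the constant factors that the scalings apply.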
